A study of Mus musculus with 11 samples.

Results

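Cadherins and protocadherins are calcium-dependent adhesion proteins of the cell surface, and their genes were followed here in sorted forebrain cells of newborn mice with a conditional Zeb2 deletion and of their controls. Members were the rows of the count table whose mouse symbol is Cdh or Pcdh plus a number, or Pcdha, Pcdhb or Pcdhg plus a cluster name, and whose mean over all libraries was at least 1 CPM, the unit of counts scaled to a fixed library total. Levels below are CPM further scaled by TMM, which corrects for differences in RNA make-up between libraries. That gave 49 of 59 family rows, out of 39179 rows in the table. They comprised 15 Cdh genes, 11 non-clustered Pcdh genes and 23 clustered Pcdh rows, and 10 family rows lay below the minimum. Expression level averaged over all libraries, not the difference between genotypes, decided membership, so a gene could enter through 1 group alone.

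The study set Gsh2-Cre; Zeb2fl/ko;RCE mice, called mutants here (n = 5), against Gsh2-Cre; Zeb2fl/wt;RCE mice, called controls (n = 6). All were CD1/Swiss mice at postnatal day 2. Gsh2-Cre drives recombination in the lineage of Gsh2-expressing progenitors of the ventral forebrain, and RCE marks recombined cells with GFP. Mutants carried 1 floxed and 1 null Zeb2 allele, while controls carried 1 floxed and 1 wild-type allele together with the same Cre and reporter, so the controls are not wild type. GFP-positive cells were sorted by flow cytometry from dissected ventricular-subventricular zone (V-SVZ), a germinal zone that goes on making neurons after birth, and their RNA was sequenced. The labels do not say whether a library came from 1 animal or from pooled animals, and p-values therefore reflect variation among libraries that may be technical.

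Libraries held 6833981 to 13073505 counts and detected 16836 to 18649 genes. Zeb2 itself averaged 302 ± 63.6 CPM in mutants and 237 ± 46.6 CPM in controls (SD, n = 5 and 6), with a log2 fold change of 0.35 (SE 0.165, adjusted p = 0.294). A count over the whole gene can include transcripts that lack the floxed part, so this value does not check the genotype. Dlx1, a transcription factor gene of ventral forebrain progenitors, was chosen as a check after its values were seen. Its transcripts stood between 622 and 1053 CPM in every library. Other genes looked at beside it were not all as level. Gad2 averaged 669 ± 75.8 CPM in mutants and 333 ± 75.5 CPM in controls. Its log2 fold change was 1.01 (SE 0.148, adjusted p = 0.000894, edgeR). Gad1 and Dcx had 0.56 and 0.51 (adjusted p = 0.0996 and 0.0892), and Dlx2 and Gsx2 -0.10 and -0.16 (adjusted p = 0.821 and 0.798). Dlx1 therefore does not show that the sorted populations were alike. Counts from 4 Y-linked genes were found in controls 1, 2, 3 and 6, at 763 to 2716 per library, and were 0 in controls 4 and 5 and in all 5 mutants, which are called female here. Genotype and sex were therefore partly mixed, and results without the male libraries are given beside the genes. Control 1 was the shallowest library and control 6 had the fewest genes detected; values without both were computed after the data had been seen.

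Classical cadherins bind the same or related cadherins on a neighbouring cell through extracellular cadherin repeats and are tied to the actin cytoskeleton by catenins. Type I members such as N-cadherin hold the neuroepithelium together, and type II members are combined differently in different groups of forebrain neurons. Non-clustered protocadherins of the delta group are used in cell sorting, migration and axon growth. Clustered protocadherins lie in alpha, beta and gamma arrays, from which single neurons express combinations that take part in self-recognition. ZEB2 is a zinc finger and homeodomain repressor that binds E-box sequences of the CACCTG kind, and in epithelial cells ZEB proteins are known repressors of Cdh1, which encodes E-cadherin.

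Of the 48 members that passed the low-count filter, 8 rose and 1 fell in mutants by edgeR's quasi-likelihood test at an adjusted p of 0.05, and 39 did not pass. Of 14 tested Cdh genes 5 rose: Cdh22, Cdh20, Cdh10, Cdh4 and Cdh2. Among the 11 non-clustered genes 3 rose, Pcdh18, Pcdh11x and Pcdh1, and 1 fell, Pcdh9. None of the 23 clustered rows passed. Over all 14104 genes tested, 4.42% were called in either direction, 2.68% higher and 1.74% lower, against 18.75% of the members. The median log2 fold change was 0.53 over the Cdh genes, 0.21 over the non-clustered genes and 0.10 over the clustered rows, beside -0.02 over all genes tested. As libraries of sorted cells are bulk samples, a change in the number of cells of a type and a change of RNA per cell cannot be told apart.

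**Figure D1:**
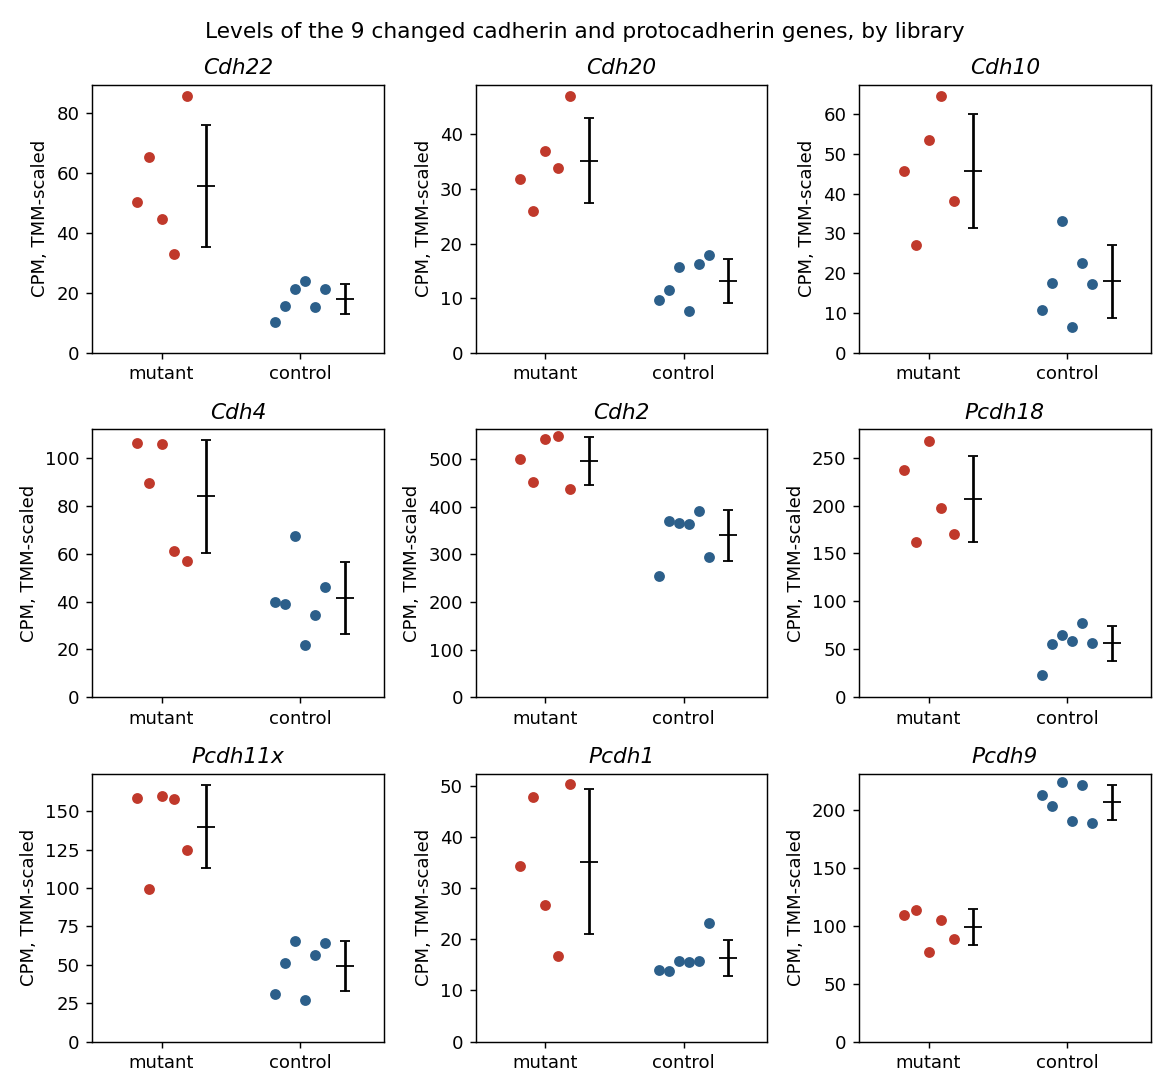
TMM-scaled CPM of the 9 changed members in each mutant library (left, n = 5) and control library (right, n = 6), with a bar for the group mean and its SD. The mutant and control points of Cdh22, Cdh20, Cdh2, Pcdh18, Pcdh11x and Pcdh9 do not overlap, while those of Cdh10, Cdh4 and Pcdh1 do.

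The promoter windows of the members with the largest changes are shown because ZEB2 binds DNA directly: Pcdh18 and Cdh22 had the largest rises, Cdh20 was another type II cadherin that rose, and Pcdh9 was the member that fell. Each is the 250 bases before a start site, from RefSeq on GRCm38.p6, written 5′ to 3′ on the gene's strand. Cdh22 is at chr2:165234738-165234987 (minus strand), Cdh20 at chr1:104768270-104768519 (plus strand), Pcdh18 at chr3:49757317-49757566 (minus strand) and Pcdh9 at chr14:93890670-93890919 (minus strand). Capitals mark a match to CACCT or its reverse complement AGGTG.
Cdh22: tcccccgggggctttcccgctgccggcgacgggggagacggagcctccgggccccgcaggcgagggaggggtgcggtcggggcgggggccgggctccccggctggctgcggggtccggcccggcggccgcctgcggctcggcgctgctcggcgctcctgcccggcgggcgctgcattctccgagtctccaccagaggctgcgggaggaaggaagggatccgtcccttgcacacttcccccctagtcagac
Cdh20: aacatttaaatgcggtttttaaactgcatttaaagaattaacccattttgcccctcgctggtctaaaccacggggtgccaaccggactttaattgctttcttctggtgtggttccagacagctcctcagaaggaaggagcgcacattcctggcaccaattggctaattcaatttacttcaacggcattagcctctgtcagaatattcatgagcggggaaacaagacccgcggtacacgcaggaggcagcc
Pcdh18: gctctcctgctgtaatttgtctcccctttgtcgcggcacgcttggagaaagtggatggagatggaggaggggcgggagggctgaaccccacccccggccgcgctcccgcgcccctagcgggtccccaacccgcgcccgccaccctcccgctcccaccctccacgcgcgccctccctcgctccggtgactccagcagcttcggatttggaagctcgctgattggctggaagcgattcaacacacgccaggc
Pcdh9: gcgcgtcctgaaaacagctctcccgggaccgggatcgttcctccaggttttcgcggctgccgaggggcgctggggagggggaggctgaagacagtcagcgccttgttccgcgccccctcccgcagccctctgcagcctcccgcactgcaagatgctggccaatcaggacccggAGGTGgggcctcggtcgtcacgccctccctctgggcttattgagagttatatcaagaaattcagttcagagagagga

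Windows reaching 50 bases past the start were searched on both strands for CACCTG (reverse complement CAGGTG) and for the shorter CACCT, whose reverse complement is AGGTG and which every CACCTG contains. The table held windows for 20 member genes, among them 5 of the 9 changed ones (Cdh22, Cdh20, Cdh10, Pcdh18 and Pcdh9). CACCTG was in 20.2% of all 32851 windows and in those of 3 of the 20 members, Cdh7, Pcdh15 and Pcdh7, none of which passed the test. CACCT was in 51.9% of all windows and in 10 of the 23 member windows, from 7 of the 20 members. Of the 5 changed members with a window, only that of Pcdh9 held it, as the AGGTG at -77 from the start. G and C made up 76.3% of the Cdh22 window, 63.0% of that of Pcdh18, 62.3% of that of Pcdh9, 50.7% of that of Cdh20 and 37.7% of that of Cdh10, beside a median of 52.7% over all windows. The changed members with a window thus ranged from AT-rich to GC-rich, and these letters describe 300 bases only.

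Among type I cadherins, both members rose. Cdh2 (ENSMUSG00000024304), which encodes N-cadherin of adherens junctions in neural progenitors and of synapses, lies on chr18:16588877-16809246 (minus strand; gene coordinates are from GENCODE M21 on GRCm38). It had 501, 453, 543, 548 and 437 CPM in mutants 1 to 5, against 255 to 391 CPM in controls with a median of 364. Every mutant exceeded every control, and the log2 fold change was 0.55 (SE 0.118, adjusted p = 0.0142). With the female libraries alone it was 0.40 and the call was lost (adjusted p = 0.23). Per kilobase of exon Cdh2 was the most abundant Cdh member, at 61.5 ± 6.29 CPM per kilobase in mutants and 42.1 ± 6.55 in controls (SD). Cdh4 (ENSMUSG00000000305), or R-cadherin, which takes part in axon growth in the retina and brain, lies on chr2:179442431-179899373 (plus strand). It had 106, 89.9, 106, 61.3 and 57.2 CPM in mutants, against 22.03 to 67.5 CPM in controls with a median of 39.4. The lowest mutants, 4 and 5, lay below control 3, the highest control, and the log2 fold change was 1.02 (SE 0.248, adjusted p = 0.0295). The Cdh4 call was lost when any of 6 of the 11 libraries was left out (controls 1, 2 and 5 and mutants 1, 2 and 3), with adjusted p = 0.0537 to 0.0901, and without controls 1 and 6 together (adjusted p = 0.0706). With the female libraries alone the log2 fold change was 1.58 (adjusted p = 0.0323).

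Of 11 type II cadherins tested, 3 rose. Cdh22 (ENSMUSG00000053166, chr2:165111507-165234853, minus strand), a cadherin enriched in brain, had 50.2, 65.1, 44.4, 33.0 and 85.5 CPM in mutants, against 10.1 to 23.9 CPM in controls with a median of 18.4. The groups did not overlap and the log2 fold change was 1.64 (SE 0.257, adjusted p = 0.00142), the largest among Cdh members. The female libraries alone gave 1.52, no longer past the threshold (adjusted p = 0.089). Cdh20 (ENSMUSG00000050840, chr1:104768529-104995481, plus strand) had 31.9, 25.9, 36.9, 33.9 and 47.1 CPM in mutants, against 7.72 to 17.9 CPM in controls with a median of 13.6. Again each mutant lay above each control, with a log2 fold change of 1.42 (SE 0.236, adjusted p = 0.00221). Among female libraries it was 1.57 and just missed the threshold (adjusted p = 0.0551). Cdh10 (ENSMUSG00000022321, chr15:18818947-19014236, plus strand), a synaptic cadherin, had 45.6, 27.1, 53.4, 64.4 and 38.1 CPM in mutants, against 6.58 to 33.0 CPM in controls with a median of 17.4. Mutant 2, the lowest mutant, lay below control 3, the highest control, and the log2 fold change was 1.35 (SE 0.333, adjusted p = 0.0322). Without any of 5 libraries (controls 1 and 2, mutants 1, 3 and 4) the Cdh10 call was lost, with adjusted p = 0.0590 to 0.0909, and likewise without controls 1 and 6 together (adjusted p = 0.106). It was also lost in the female libraries, where the log2 fold change was 1.67 (adjusted p = 0.141).

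Cdh8, a type II cadherin that marks subdivisions of the forebrain including the striatum, was lower by a log2 fold change of -1.05 that missed the threshold (SE 0.300, adjusted p = 0.0633). It had 81.4, 81.8, 74.1, 56.7 and 62.8 CPM in mutants, against 68.0 to 259 CPM in controls with a median of 146. Controls 1 and 6, at 68.0 and 68.3 CPM, lay within the mutant range and the other 4 controls lay at 138 CPM or above. DESeq2 called Cdh8, as did the fits without control 1, without control 6 and with the female libraries alone. Of the 7740 exon bases of Cdh8, 7717 are unshared. The rest overlap the annotated gene Gm15679, from which reads cannot be told apart without strand. Cdh24 averaged 37.7 ± 6.66 CPM in mutants and 26.5 ± 4.87 CPM in controls and did not pass (adjusted p = 0.122). DESeq2 called Cdh24 higher (adjusted p = 0.0480), as did the fit with 1 surrogate variable. Cdh11, a cadherin of mesenchyme that is also found in brain, averaged 37.1 ± 11.3 CPM in mutants and 53.1 ± 19.2 CPM in controls and did not pass (adjusted p = 0.34). Cdh7, Cdh18, Cdh6, Cdh9 and Cdh12, all below 15 CPM on average in both groups, did not pass either. Of these, Cdh7 was called higher by limma-voom with library weights. Cdh13, or T-cadherin, which is held in the membrane by a lipid anchor in place of a transmembrane segment, averaged 168 ± 26.2 CPM in mutants and 175 ± 37.8 CPM in controls, with a log2 fold change of -0.06 (95% interval -0.40 to 0.27).

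The make-up of the type II RNA differed between the groups. Per kilobase of exon, Cdh8 held 12.2 to 20.4% of the summed level of the 11 type II genes in mutants and 22.4 to 52.3% in controls. Cdh22 held 18.6 to 34.5% in mutants and 6.35 to 14.9% in controls. Neither gene's share overlapped between groups, although the level of Cdh8 itself did overlap and did not pass the test. A share also depends on the other genes in the sum, among which Cdh22, Cdh20 and Cdh10 rose. How often such shares separate in other gene sets was not computed. Cdh24 held a mean of 19.1% in mutants and 17.8% in controls. Cdh8 was the leading type II gene in controls 1 to 5 and Cdh24 in control 6, whereas Cdh22 led in all 5 mutants, as the bars of make-up by library show. The shares were taken from genes whose levels were compared above and carry no test of their own.

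**Figure D2:**
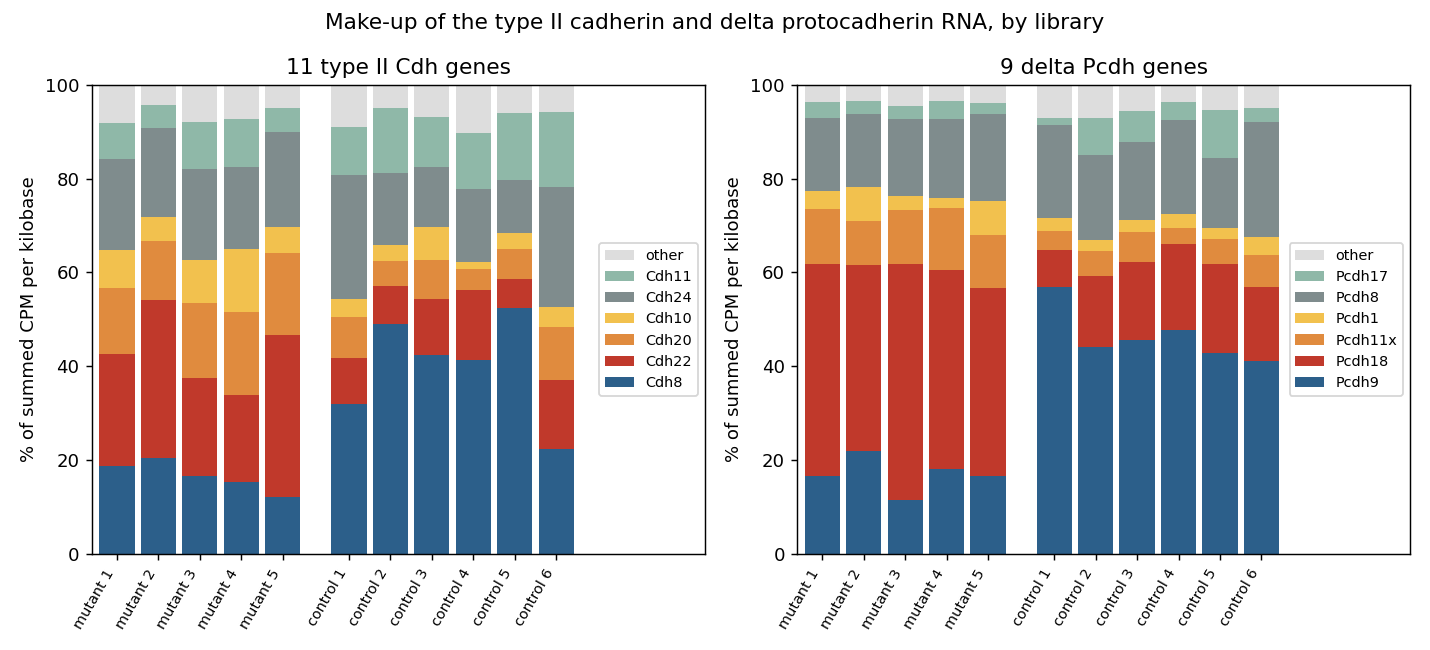
Share of summed CPM per kilobase of exon held by each gene within the 11 type II Cdh genes (left panel) and the 9 delta Pcdh genes (right panel), with 1 bar per library, mutants left and controls right. Cdh8 and Pcdh9 form the largest mean share in controls, at 39.9% and 46.4%, and Cdh22 and Pcdh18 in mutants, at 26.4% and 43.6%.

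Among non-clustered protocadherins, the largest change was that of Pcdh18 (ENSMUSG00000037892, chr3:49743296-49757325, minus strand), a delta protocadherin whose mouse protein can bind the adaptor Dab1. It had 237, 162, 267, 197 and 171 CPM in mutants, against 23.2 to 77.8 CPM in controls with a median of 57.7. The lowest mutant was above the highest control, and the log2 fold change was 1.88 (SE 0.232, adjusted p = 0.00022). In female libraries it was 1.61 (adjusted p = 0.00603). Pcdh11x (ENSMUSG00000034755, chrX:120290259-120910619, plus strand), an X-linked delta protocadherin, had 158, 99.2, 160, 158 and 125 CPM in mutants, against 26.9 to 65.3 CPM in controls with a median of 53.9. No library of the groups overlapped, and the log2 fold change was 1.51 (SE 0.226, adjusted p = 0.00105). Because Pcdh11x is X-linked and all mutants were female, the control sexes matter here: the 2 female controls had 26.9 and 56.6 CPM and the 4 male controls 31.2 to 65.3 CPM. In female libraries the log2 fold change was 1.76 (adjusted p = 0.0156).

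Pcdh1 (ENSMUSG00000051375, chr18:38185914-38212053, minus strand), a delta protocadherin also found in airway epithelium, had 34.3, 47.7, 26.7, 16.8 and 50.4 CPM in mutants, against 13.9 to 23.3 CPM in controls with a median of 15.7. Mutant 4 lay among the controls, and the log2 fold change was 1.10 (SE 0.260, adjusted p = 0.0248). It stayed between 0.93 and 1.28 with any 1 library left out, but the call depended on single libraries. The call was lost without any of 7 libraries (controls 1 to 4 and mutants 1, 2 and 5), with adjusted p = 0.0519 to 0.0689, in limma-voom, and in the female libraries (log2 fold change 1.18, adjusted p = 0.25). Pcdh9 (ENSMUSG00000055421, chr14:93013410-93890679, minus strand), a delta protocadherin of developing and adult brain, had 110, 114, 77.4, 105 and 89.2 CPM in mutants, against 189 to 224 CPM in controls with a median of 208. Every mutant lay below every control, and the log2 fold change was -1.06 (SE 0.117, adjusted p = 7.71e-05), beside -1.05 in female libraries (adjusted p = 0.0116).

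Within the 9 delta genes, Pcdh18 held 39.7 to 50.2% of the summed level per kilobase in mutants and 7.83 to 19.0% in controls, and Pcdh9 held 11.5 to 21.99% in mutants and 41.1 to 57.0% in controls. Pcdh18 exceeded Pcdh9 in every mutant library, and Pcdh9 exceeded Pcdh18 in every control library. These shares, too, were taken from genes whose levels were compared above and carry no test of their own. Pcdh8, which is induced by neuronal activity and promotes cadherin internalisation, averaged 59.5 ± 6.39 CPM in mutants and 51.4 ± 8.37 CPM in controls (log2 fold change 0.21, SE 0.139, adjusted p = 0.482). Its exons overlap those of Gm9748. Pcdh17, a gene of basal ganglia circuits, averaged 34.6 ± 8.57 CPM in mutants and 50.5 ± 33.9 CPM in controls, where it ranged from 10.5 to 101 CPM (adjusted p = 0.555). Pcdh10, Pcdh7, Pcdh19, Pcdh15 and Pcdh20 did not pass, with log2 fold changes between -0.67 and 0.27.

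**Figure D3:**
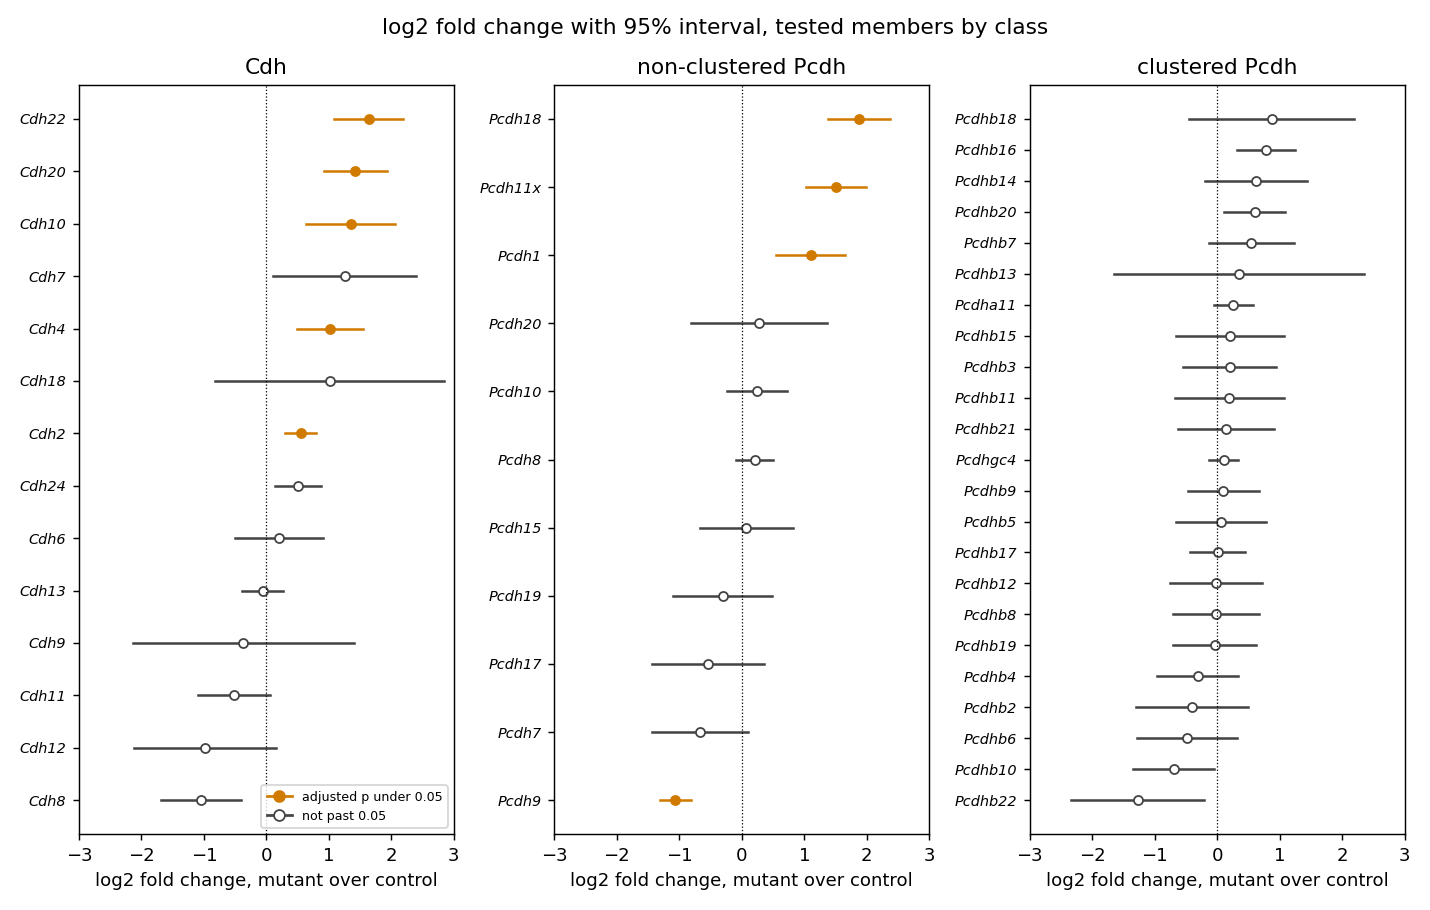
Log2 fold change, mutant over control, of the 48 tested members with 95% intervals, grouped as Cdh, non-clustered Pcdh and clustered Pcdh genes. Coloured points mark the 9 members past an adjusted p of 0.05, of which Pcdh18 (1.88) is farthest up and Pcdh9 (-1.06) is the one below 0.

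Values of the changed members outside chromosome 18 were set beside those of other family members on the same chromosome. Cdh2 and Pcdh1, on chromosome 18, were left out, and Cdh8, Cdh11 and Cdh13, which were not called, were added. On chromosome 3, Pcdh18 rose while its neighbour in the family, Pcdh10, had a log2 fold change of 0.24 (SE 0.225, adjusted p = 0.644). On chromosome 15, Cdh10 rose, and Cdh9 and Cdh12, the nearest members on either side, had log2 fold changes of -0.37 (SE 0.829) and -0.99 (SE 0.533), neither past the test. On chromosome 14, Pcdh9 fell, and Pcdh20 and Pcdh17 had 0.27 (SE 0.512) and -0.54 (SE 0.418). On chromosome 1, Cdh20 rose and Cdh7 had 1.25 (SE 0.535, adjusted p = 0.238). Cdh22 and Cdh4, both on chromosome 2, both rose, at 1.64 (SE 0.257) and 1.02 (SE 0.248). On the X chromosome, Pcdh11x rose and Pcdh19 had -0.31 (SE 0.369), which did not pass. On chromosome 8, Cdh8 and Cdh11 were both lower without passing, at -1.05 (SE 0.300) and -0.52 (SE 0.267). Cdh13, on the same chromosome, had -0.06 (SE 0.157). The difference between neighbours was not tested, and the intervals of the genes with few counts are wide.

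No clustered protocadherin row passed the test. The gamma and alpha rows were at high levels, while most single beta genes averaged below 15 CPM. At an unadjusted p of 0.05, 2 were higher and 2 lower, where 17.3% of all genes tested met that criterion. DESeq2 called 1, Pcdhb16 (adjusted p = 0.0148), and 7.25% of all genes it tested. The gamma cluster was counted in 1 row, Pcdhgc4, at 874 to 1118 CPM in mutants and 778 to 1220 CPM in controls, with a log2 fold change of 0.10 (95% interval -0.13 to 0.34). The alpha cluster was counted in 1 row, Pcdha11, at 145 to 163 CPM in mutants and 93.2 to 166 CPM in controls, with a log2 fold change of 0.25 (95% interval -0.06 to 0.57). The GENCODE M21 annotation lists 14 alpha and 22 gamma identifiers, and the count table holds only 1 of each cluster. Alpha genes share constant exons with each other, as gamma genes do, so each row may hold reads of its whole cluster and no level per length is given for it.

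Beta genes have largely single-exon coding sequences without shared constant exons, and 21 of 22 identifiers were members. Their summed level was 246 to 342 CPM in mutants (297 ± 36.1) and 199 to 312 CPM in controls (256 ± 37.0), so the groups overlapped. Pcdhb16 averaged 56.6 ± 14.3 CPM in mutants and 32.9 ± 8.96 CPM in controls and had the smallest adjusted p in the cluster (log2 fold change 0.78, SE 0.219, adjusted p = 0.0584). Pcdhb7 averaged 34.4 ± 4.77 CPM in mutants and 23.5 ± 9.86 CPM in controls (adjusted p = 0.405). Pcdhb17 averaged 32.02 ± 4.53 CPM in mutants and 31.95 ± 9.91 CPM in controls. Pcdhb20, at 20.6 to 26.8 CPM in mutants and 7.72 to 20.5 CPM in controls, was the only clustered row whose groups did not overlap, and it did not pass (adjusted p = 0.178). Pcdhb10 and Pcdhb22 had the lowest unadjusted p among the rows that were lower in mutants, with log2 fold changes of -0.70 (SE 0.306) and -1.28 (SE 0.495), and adjusted p = 0.25 and 0.189.

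The ranking of beta genes was similar in both genotypes: across the 21 genes, which share libraries and depth, Spearman's rho between group means was 0.83. The 4 beta genes highest in controls held 43.6 to 50.7% of the beta sum in mutants and 37.4 to 50.1% in controls. Neither level per kilobase nor log2 fold change followed the position in the array closely, with rho of -0.14 and 0.26 across the same genes. The beta coding sequences resemble each other, so reads mapping to several of them could be split or dropped by the counting. Pcdhb12 overlaps Gm37446, and Pcdhb21 and Pcdhb22 overlap each other.

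**Figure D4:**
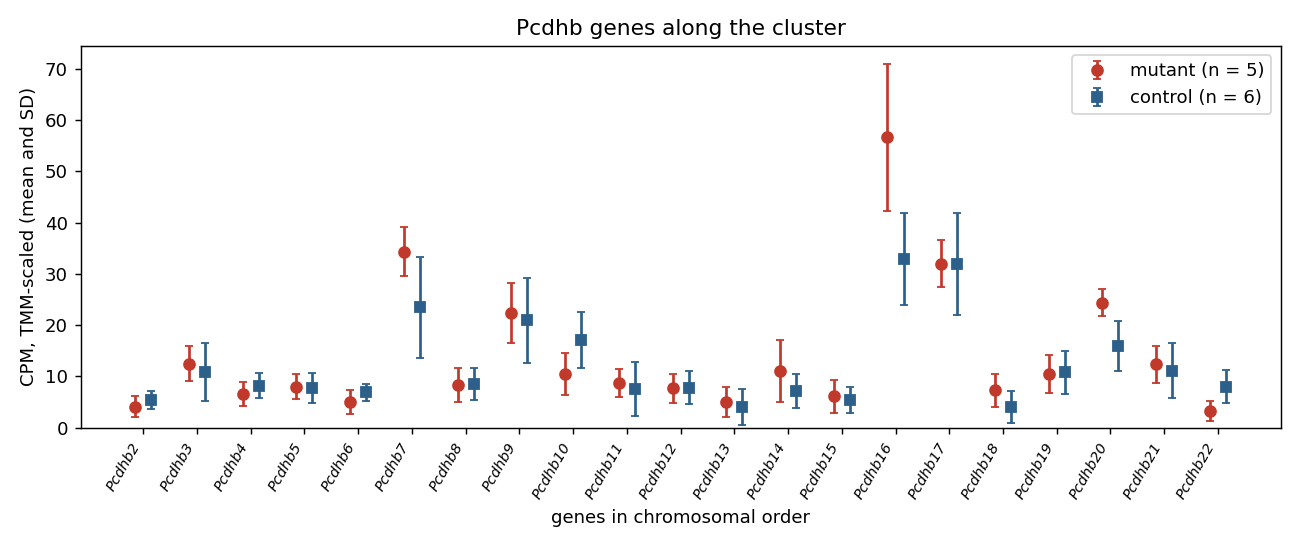
TMM-scaled CPM of the 21 beta protocadherin genes in their order along the cluster, as group means with SD for mutants (n = 5) and controls (n = 6). Pcdhb16 has the highest mean in mutants, at 56.6 CPM, and Pcdhb16 and Pcdhb17 lie together at the top in controls, at 32.91 and 31.95 CPM.

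Family genes of epithelia and vessels were at or near 0. Cdh1, the epithelial cadherin, had 5 counts in mutant 1 and 0 in the other 4 mutants and in all 6 controls. Cdh3, or P-cadherin, had 6 counts in mutant 4 and 0 elsewhere. Cdh5, the cadherin of endothelial junctions, had 17 counts in mutant 1, 1 in mutant 5 and 9 in control 5, and 0 in the remaining libraries. At the level minimum, Cdh23 and Cdh18 were just inside at a mean of 1.02 and 1.63 CPM, and Cdh15 and Pcdhb1 just outside at 0.47 and 0.42 CPM. Cdh23, of the tip links of inner ear hair cells, had 33, 6, 8, 31 and 37 counts in mutants, against 0 to 13 in controls. It averaged 1.88 CPM in mutants and 0.308 CPM in controls, so it was a member only through the mutants. The low-count filter kept Cdh23 out of the test.

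Non-overlap of the groups, counted over all members tested, was found above the controls for 6 members (Cdh22, Cdh20, Cdh2, Pcdh18, Pcdh11x and Pcdhb20) and below them for 1 (Pcdh9), while 2.89% and 2.03% of all genes tested did so. In the fit of the 5 mutants against the 2 female controls alone, Pcdh18, Pcdh11x, Cdh4 and Pcdh9 passed and Cdh22, Cdh20, Cdh10, Cdh2 and Pcdh1 did not. Over all genes that fit called 218, or 1.46%. Pcdh18, Pcdh11x and Pcdh9 kept their calls in each of the 28 alternative settings run.

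**Figure D5:**
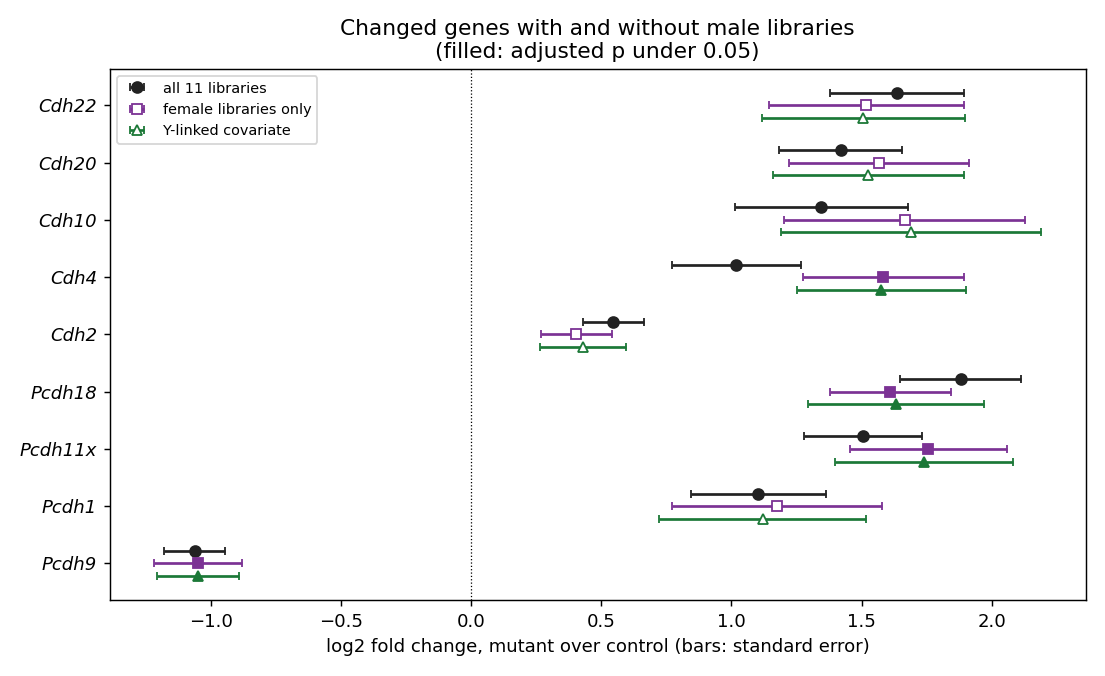
Log2 fold change, mutant over control, of the 9 changed members in 3 fits, with all libraries (circles), female libraries only (squares) and a Y-linked covariate (triangles), with the SE as bars and filled symbols for an adjusted p under 0.05. Each member keeps its sign in the 3 fits, and the symbols of Pcdh18, Pcdh11x, Cdh4 and Pcdh9 are filled in all of them.

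Cell markers moved with the same contrast. Beside the counts below, 2.68% of all genes tested were called higher and 1.74% lower, and DESeq2 called 7.25% of the genes it tested. Of the 14104 genes, 1264 were higher and 1177 lower at an unadjusted p of 0.05. Single genes did not overlap between groups in 2.89% (mutants above) and 2.03% (mutants below), and no such share was computed for sums. The summed level of 11 genes of interneurons from the medial ganglionic eminence (MGE), including Lhx6, Sst and Npy, was 2774 to 3964 CPM in mutants and 554 to 914 CPM in controls, with 6 genes higher and 1 lower. That of 15 striatal projection neuron genes was 776 to 1056 CPM in mutants and 1290 to 3019 CPM in controls, with 1 higher and 8 lower. Neither sum overlapped between the genotypes, and they lay in opposite directions. That of 20 mitosis genes was 545 to 873 CPM in mutants and 936 to 1421 CPM in controls, with 4 lower, again without overlap (13 lower at an unadjusted p of 0.05 and 8 by DESeq2). Oligodendrocyte precursor genes summed to 612 to 999 CPM in mutants and 843 to 2464 CPM in controls, control 6 being highest, with 1 of 8 lower (Gpr17). At an unadjusted p of 0.05, 6 of these 8 were lower, DESeq2 called 3 lower, and their median log2 fold change was -1.02. Astrocyte and radial glia genes summed to 980 to 1879 CPM in mutants and 1122 to 2048 CPM in controls, with 1 of 12 higher (Hopx) and 1 lower (Vim). The glial sums of the genotypes overlapped. Pallial excitatory neuron genes summed to 30.1 to 126 CPM in mutants and 10.2 to 72.0 CPM in controls, with 1 of 8 tested higher (Neurod1). The part of these cell markers in the cadherin and protocadherin changes was not tested.

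Among markers of other cell types, endothelial, microglial, blood, meningeal and ependymal sums were below 20 CPM in every library, and mural and choroid plexus sums were higher. The endothelial gene Tek and the globin gene Hba-a2 were at 0 in every library. Endothelial genes summed to 2.77 to 9.22 CPM in mutants and 4.28 to 10.5 CPM in controls. Microglial genes summed to 2.17 to 10.04 CPM in mutants and 0.985 to 9.87 CPM in controls. Blood genes summed to 2.15 to 5.31 CPM in mutants and 0.646 to 5.49 CPM in controls. Meningeal fibroblast genes summed to 4.36 to 6.31 CPM in mutants and 1.48 to 6.58 CPM in controls. Mural genes summed to 31.96 to 65.5 CPM in mutants and 56.9 to 253 CPM in controls, with control 6 highest. Most of that sum in control 6 was Cspg4, which is also in the oligodendrocyte precursor list and stood there at 190.4 CPM. Ependymal genes summed to 5.89 to 7.90 CPM in mutants and 4.80 to 17.3 CPM in controls. Choroid plexus genes summed to 47.5 to 282 CPM in mutants and 81.8 to 107 CPM in controls. Mutant 5 was highest, with Ttr at 204 CPM, and Ttr was at most 0.835 CPM in the other libraries. Outside mutant 5, most of the choroid plexus sum was Enpp2, at 42.3 to 89.8 CPM in mutants and 77.0 to 101 CPM in controls. None of the genes tested in these 7 lists passed in edgeR, where 1 mural gene, Cspg4, had an unadjusted p under 0.05; DESeq2 called 1 mural gene lower and 1 meningeal gene higher.

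Of 11 tested catenins and other juxtamembrane proteins, Ctnna1, which encodes alpha-E-catenin that links cadherins to actin, fell: it averaged 110 ± 11.8 CPM in mutants and 153 ± 20.3 CPM in controls (log2 fold change -0.47, SE 0.119, adjusted p = 0.0348). Ctnnb1, which encodes beta-catenin, averaged 567 ± 109 CPM in mutants and 744 ± 96.4 CPM in controls and did not pass (adjusted p = 0.108). Ctnna2, the neuronal alpha-catenin, averaged 346 ± 35.9 CPM in mutants and 290 ± 37.4 CPM in controls and did not pass (adjusted p = 0.237). The median of the log2 fold changes was -0.27 over these 11 genes and -0.02 over all genes. At an unadjusted p of 0.05, 1 was higher and 4 were lower, beside 17.3% of all genes tested in either direction.

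No gene passed in the other lists of the pathway. That holds for 11 tested genes of the wider cadherin superfamily such as Fat3 and Celsr3 (3 higher at an unadjusted p of 0.05, which 17.3% of all genes met in either direction, and 1 by DESeq2) and for 18 regulators of clustered protocadherin promoters such as Ctcf and the cohesin genes (4 higher unadjusted, 0 by DESeq2). It also holds for 16 effectors of protocadherins (1 higher and 3 lower unadjusted, 0 by DESeq2) and for 8 proteases that process cadherins, such as Adam10 (0 unadjusted and 0 by DESeq2). Their median log2 fold changes were 0.28, 0.16, -0.10 and 0.07.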

How the data were processed

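RNA from GFP-positive cells of 11 mice or pools (5 mutants, 6 controls) was sequenced from Illumina TruSeq libraries, per the labels' protocols. The authors deposited raw counts per gene for all libraries in 1 table; TopHat2 2.0.13, featureCounts 1.4.6 and mm10/GRCm38 are named in the submitters' processing notes, and no source used here names the annotation release or strand setting. Of 39179 identifiers, 37693 matched GENCODE M21, which gave symbols, positions and exon lengths.

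Genes were kept by filterByExpr, scaled by TMM and tested with edgeR 4.0.16 (robust quasi-likelihood, Benjamini-Hochberg over 14104 genes, threshold 0.05; R 4.3.3); SEs are derived from its F statistics. The fit was tested on simulated data. Levels per kilobase use exon length not shared with other genes. Alternatives used DESeq2 1.42.0, limma 3.58.1 and sva 3.50.0, other scalings, filters and thresholds, the replicate numbers as a block, Y-linked counts and left-out libraries. Depth limits genes of few counts. Replicates differed beyond counting noise (chi-square per degree of freedom at least 13.7).

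Members and lists were chosen with earlier results of these data known. Named are the members past the threshold, the 4 of each class with the highest level per length, Cdh1, Cdh2 and Cdh5, the 2 genes on either side of the level minimum and, of each other list, up to 4 called genes. Other names, such as Dlx1, Cdh3, Pcdh17, genomic neighbours and Pcdhb genes with low unadjusted p, were chosen after their values were seen.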

Additional observations from a re-analysis of the deposited data

Results flagged for a closer look

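In 9 of 43 tests of single groups of libraries, the highest library stood apart from the rest by Dixon's 95% criterion, which chance alone meets in about 1 of 20 groups. Control 6 was the one that stood apart among controls for 3 members: Pcdh1 at 23.3 CPM (next control 15.8), Pcdh8 at 67.9 CPM (next 51.0) and Pcdhgc4 at 1220 CPM (next 922). Control 6 was also the library with the fewest genes detected and the highest summed level of oligodendrocyte precursor genes, 2464 CPM. The part of that level in these 3 values was not tested.

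The other 6 were genes of very low counts. Where most libraries are at or near 0, 1 library with a few counts can meet the criterion. The share of groups flagged can therefore not be compared with the chance rate. Cdh1 was at 0.383 CPM in mutant 1 and 0 in the other mutants, which is 5 counts. Cdh5 was at 1.30 CPM in mutant 1 (17 counts; next mutant 0.0829 CPM) and at 0.998 CPM in control 5 (9 counts; the other controls at 0). Cdh23 was at 1.28 CPM in control 3 (13 counts; next control 0.418 CPM). Cdh15 was at 0.829 CPM in mutant 5 (10 counts; the other mutants at 0). Pcdhb1 was at 0.626 CPM in control 4 (6 counts; the other controls at 0).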

How the results depend on the processing

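The 4 called non-clustered protocadherins numbered 3 or 4 in every setting run. Scaling by RLE, by upper quartile or by library totals, no filter, a stricter filter, no robust estimation and leaving out Gm42418 each called the same 9 members, and scalings and other settings moved the median log2 fold change of all genes by at most 0.03. The count of all changed genes, 623, became 1210 in DESeq2, 286 and 976 at thresholds of 0.01 and 0.1, 186 with the Y-linked covariate, 218 with female libraries only and 992 with 1 surrogate variable. Members that rose, 8, became 10 in DESeq2 and with 1 surrogate variable, 9 with library weights and at 0.1, 7 in limma-voom, 4 at 0.01, 5 with the replicate block, 3 with the Y-linked covariate, 3 with female libraries and 5 to 8 with 1 library left out. Members that fell, 1, became 2 (Pcdh9 and Cdh8) in DESeq2, limma-voom with library weights, at 0.1, with female libraries, with 1 surrogate variable and without controls 1 and 6 together, and were 1 to 2 with 1 library left out. Cdh genes that changed, 5, became 7 in DESeq2, with library weights and with 1 surrogate variable, 6 at 0.1, 2 at 0.01, 3 with the replicate block, 1 with the Y-linked covariate, 2 with female libraries and 3 to 6 with 1 library left out. Clustered rows that changed, 0, became 1 (Pcdhb16) in DESeq2, limma-voom with library weights, at 0.1 and with 1 surrogate variable, and were 0 to 1 with 1 library left out. The log2 fold change of Cdh13, -0.06, was 0.0257 without control 5 and 0.0280 without mutant 4. Pcdhb12 stood at 7.05 CPM per kilobase in controls over unshared exons and at 2.57 over all its exons. The replicate numbers did not pair libraries: over 5 same-numbered pairs r was -0.14 to 0.02, and 0 libraries correlated best with their own number; under the block Cdh10, Cdh2 and Pcdh1 lost their calls. Female-only and Y-linked fits have fewer controls or degrees of freedom, and beyond that the cause of these differences was not tested. Depth limits genes of few counts such as Cdh18, Cdh9 and Pcdhb13, whose SEs were 0.857, 0.829 and 0.938 on the log2 scale.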
